A study of Mus musculus with 36 samples.

Results

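The genes described here are the E2F targets of the hallmark gene set table that was deposited with the RNA-Seq data. Of the 191 genes of that set in the expression table, 189 are described, out of 21650 genes measured in all. Membership came from the table alone, and no measured value entered that rule. The set was chosen with earlier results of these data known, and some genes named below were added after their values were seen. All 189 were annotated as protein coding and had mm10 coordinates. The set overlapped other hallmark sets, since 70 of the 189 genes were also in the G2M checkpoint set, 34 in MYC targets V1, 18 in mitotic spindle and 14 in DNA repair.

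RNA was sequenced from 36 samples in 12 groups of 3. Primary tumors grew from 4T1 cells, a metastatic mammary tumor line of BALB/c origin that expresses firefly luciferase, inoculated into BALB/c mice, or from Py230 cells, derived from a tumor of a C57BL/6 mouse carrying the MMTV-PyMT transgene, inoculated into C57BL/6 mice. Control glands of both strains received Matrigel alone. Tumors and glands were collected at 1, 3 and 6 weeks post-inoculation (w p.i.), and all material was given intraductally to lactating females after weaning of the pups. The study used wild-type C57BL/6 mice and albino C57BL/6 mice with an NF-κB luciferase transgene and no tyrosinase gene, and the sample labels do not say which of these gave RNA. The study inoculated more Py230 cells than 4T1 cells. The tumor line, the mouse strain and the cell dose change together in this design and cannot be told apart in a 4T1 vs Py230 comparison. The study calls the tumor samples of a group independent, and the labels do not say whether samples came from separate mice, so the p-values measure the spread between these samples, which may in part be technical.

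E2F transcription factors switch on the genes that a cell needs to copy its DNA and divide. In a resting cell the retinoblastoma protein holds E2F factors inactive, and cyclin-dependent kinases release them when the cell commits to division. The targets include the proteins that license replication origins, the DNA polymerases and their clamp, the enzymes that supply nucleotides, and many mitotic and checkpoint genes. Mitotic genes reach their peak later in the cycle, and the DREAM and MYB-MuvB complexes act on them through CHR elements in their promoters. In a mammary tumor the transcripts of such genes are used as a readout of proliferation.

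Stretches of RefSeq promoter sequence (GRCm38.p6) of 8 members, given 5′ to 3′ in the direction of transcription, illustrate the elements. E2F octamers are shown in 3 Mcm genes, CHR elements in 4 mitotic genes and both in Cdk1. Not every gene of these kinds had such a match, since Mcm2 held no E2F octamer and Birc5 no CHR element in its promoter window. Capitals mark matches to an E2F octamer (TTTCCCGC, TTTGGCGC, TTTCGCGC or TTTGCCGC on either strand) or to the CHR element TTTGAA. The first 3 genes encode subunits of the MCM replicative helicase, Cdk1 encodes the kinase that drives entry into mitosis, and the last 4 genes act in mitosis.
Mcm5 (chr8:75109336-75109395, plus strand): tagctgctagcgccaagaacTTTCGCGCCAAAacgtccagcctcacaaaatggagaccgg
Mcm6 (chr1:128359776-128359835, minus strand): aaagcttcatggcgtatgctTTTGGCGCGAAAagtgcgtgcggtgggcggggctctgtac
Mcm7 (chr5:138172009-138172068, minus strand): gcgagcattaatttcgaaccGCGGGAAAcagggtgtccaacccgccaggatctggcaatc
Cdk1 (chr10:69352966-69353055, minus strand): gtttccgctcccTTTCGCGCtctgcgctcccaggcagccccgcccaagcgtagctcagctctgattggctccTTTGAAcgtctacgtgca
Mki67 (chr7:135716456-135716515, minus strand): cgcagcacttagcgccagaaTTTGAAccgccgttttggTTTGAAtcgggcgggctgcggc
Top2a (chr11:99024329-99024388, minus strand): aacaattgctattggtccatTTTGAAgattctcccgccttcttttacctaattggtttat
Ccnb2 (chr9:70421682-70421741, minus strand): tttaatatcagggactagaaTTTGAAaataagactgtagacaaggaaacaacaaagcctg
Cdc20 (chr4:118437344-118437403, minus strand): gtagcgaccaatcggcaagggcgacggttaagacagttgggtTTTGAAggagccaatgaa

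In Mcm5 and Mcm6 the capitals hold 2 octamers that overlap, 1 on each strand. Windows from 250 bases before to 50 bases after the start of transcription were found for 154 of the 189 members. An E2F octamer lay in 34 of these windows (22.1%), against 2.6% of the windows of all 27025 genes and 3.29% of those of 17492 protein-coding genes. The CHR element, a much shorter word, lay in 31.2% of member windows and in 20.2% of all windows. A match says only that these letters lie in the window. The split by role was marked. The E2F octamer was found in 5 of 10 windows of origin licensing and helicase genes and in 1 of 30 windows of mitosis genes (3.33%), whereas CHR was found in 17 of the 30 mitosis windows (56.7%) and in 2 of the 10 licensing windows.

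Expression is given as deposited, in scores. Each library had been standardized so that its 21650 genes had a mean of 0 and an SD of 1, so a score places a gene within its library and carries no read depth. Across 13567 genes with an authors' mean normalized count of at least 100, 1 score unit corresponded to 2.78 log2 units of that count (r = 0.972, across genes, which are not independent replicates). The members had authors' mean normalized counts from 8.02 to 3245 with a median of 406, compared to a median of 230 for all genes, and 16 members were below 100. Differences between groups were tested with limma over all genes, and called at an adjusted p below 0.05. For a single gene, an exact permutation test cannot go below p = 0.1 at this group size of 3.

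Adipose tissue differed strongly between the samples. The mean score of 8 adipocyte markers (Adipoq, Plin1, Cidec, Lep, Lpl, Fabp4, Retn and Pck1) lay between 1.71 and 2.34 in the 18 Matrigel glands, between -0.31 and 0.01 in 4T1 tumors at 6 w p.i. and between -0.09 and 1.07 in Py230 tumors at 6 w p.i. At the earlier times some tumors were as rich in these transcripts as a gland. This held for 1 of 3 4T1 tumors at 1 w p.i. (replicate 2, 1.81), for 2 of 3 4T1 tumors at 3 w p.i. (replicates 2 and 3, 2.12 and 2.27), for 2 of 3 Py230 tumors at 3 w p.i. (replicates 2 and 3, 1.79 and 2.05) and for all 3 Py230 tumors at 1 w p.i. (1.86 to 2.05). Epithelial markers had a mean score from 1.16 to 1.78 in every library. In bulk tissue, fewer cells of a type and less RNA per cell cannot be told apart.

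**Figure D1:**
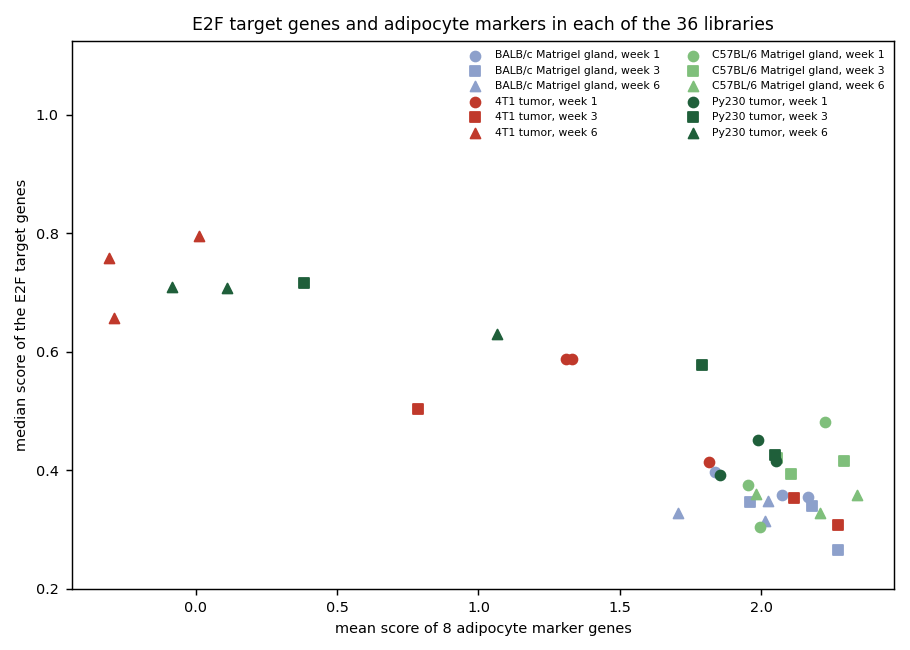
Each point is 1 library, with the mean score of 8 adipocyte markers on the horizontal axis and the median score of the 189 E2F targets on the vertical axis. At 3 w p.i. the tumor library of each model with the lowest adipocyte score (0.79 for 4T1, 0.38 for Py230) had the highest member median of its group (0.50 and 0.72), and the libraries with 2.27 and 2.05 had the lowest (0.31 and 0.43).

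The E2F targets were highest in established tumors. The highest of the 12 group means was that of 4T1 tumors at 6 w p.i. for 108 of the 189 members and that of Py230 tumors at 6 w p.i. for 69, whereas the lowest was that of BALB/c glands at 3 w p.i. for 84. The same counts were not made over all genes. At 6 w p.i. 38.6% of all genes were called higher in 4T1 tumors and 28.8% in Py230 tumors than in the respective glands. Genes differed widely in how far they moved. The range of the 12 group means had a median of 0.47 over the members and was widest for Top2a, the topoisomerase that untangles chromosomes (1.42), and narrowest for Smc1a, a cohesin subunit (0.12). Within the roles, the median range was 0.99 for mitosis and spindle genes, 0.72 for transcription factors, 0.66 for cyclins, CDKs and their inhibitors, and 0.63 for nucleotide supply. It was 0.50 for origin licensing, 0.47 for checkpoint and repair, 0.43 for chromatin, 0.40 for polymerases and fork proteins, 0.32 for nuclear transport and RNA, and 0.25 for cohesin and condensin.

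**Figure D2:**
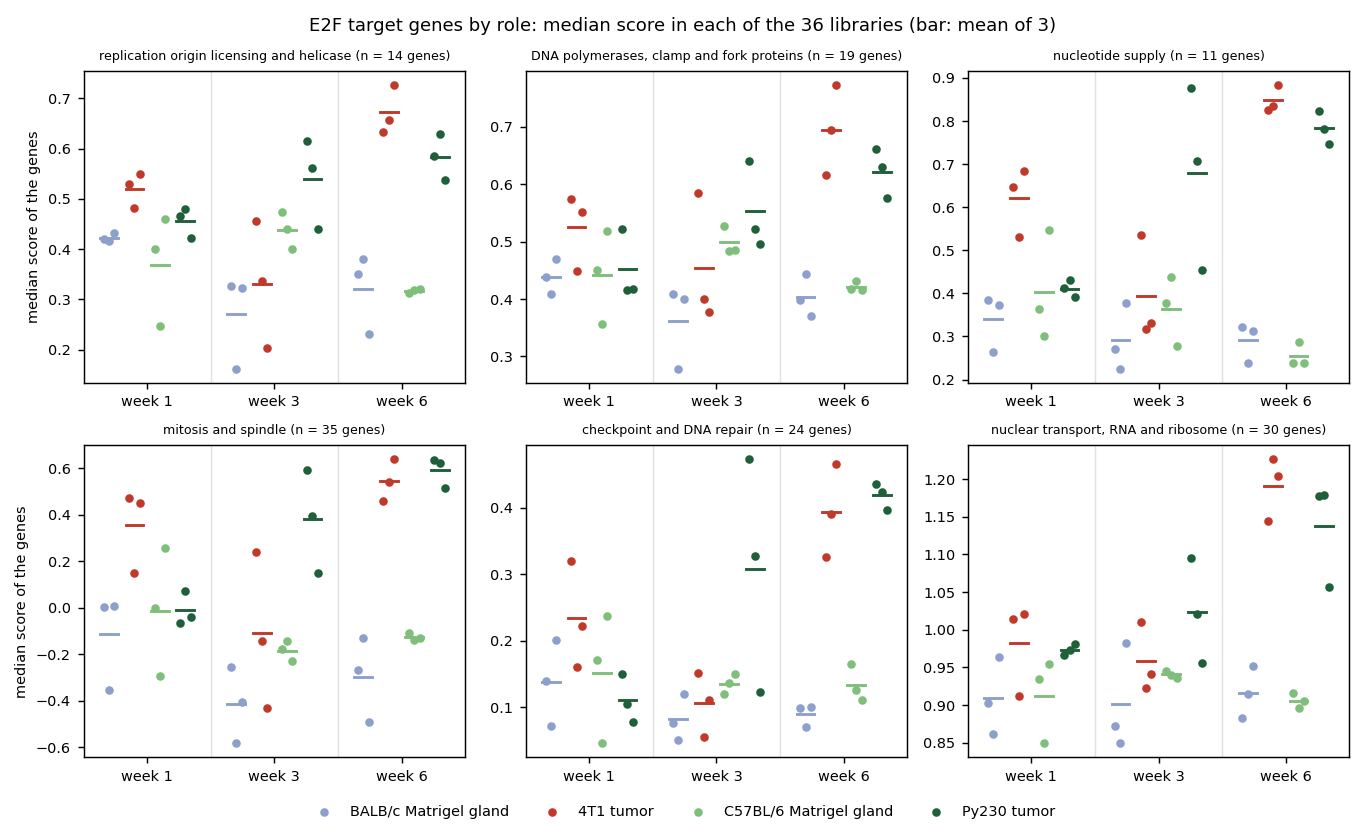
The median score over the members of 6 of the roles is plotted for the 12 groups, by weeks post-inoculation. The points are single libraries and the short bars are means of 3 libraries, and at 6 w p.i. both tumor groups lie above both gland groups in the mitosis genes.

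At 6 w p.i., 170 of the 189 members differed between 4T1 tumors and BALB/c Matrigel glands, 169 higher and 1 lower. Among all genes 60.1% were called (38.6% higher and 21.5% lower). In Py230 tumors compared to C57BL/6 glands 160 members were called, 156 higher and 4 lower, against a background of 47.6% (28.8% higher and 18.7% lower). The median difference over the members was 0.40 for 4T1 and 0.34 for Py230, compared to 0.07 and 0.03 over all genes. The 2 comparisons share no library, and 148 genes were higher in both (87.6% of the 4T1 list and 94.9% of the Py230 list). Among all members 82.5% were higher in Py230 tumors and 89.4% in 4T1 tumors, so much of this overlap follows from the size of the lists. After cyclic loess normalization the share of all called genes that were higher moved from 64.2% to 50.6% for 4T1, and the members were then split 158 higher and 2 lower. In the same comparisons all 8 adipocyte markers fell (median differences -2.16 and -1.79). The 4 neutrophil markers rose in 4T1 tumors (median 1.80) and 3 of the 4 rose in Py230 tumors (median 0.90). Skeletal muscle markers fell in 4 of 4 cases in 4T1 tumors (median -2.80), and in Py230 tumors they were not called (median -1.40). In 4T1 tumors 4 of 6 milk-producing epithelium markers (median -1.96) and 4 of 4 basal epithelium markers (median -1.02) fell, and 4 of 5 leukocyte markers rose (median 0.46). Endothelium markers fell in 3 and 4 of 4 cases. The part of these cell types in the result was not tested.

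**Figure D3:**
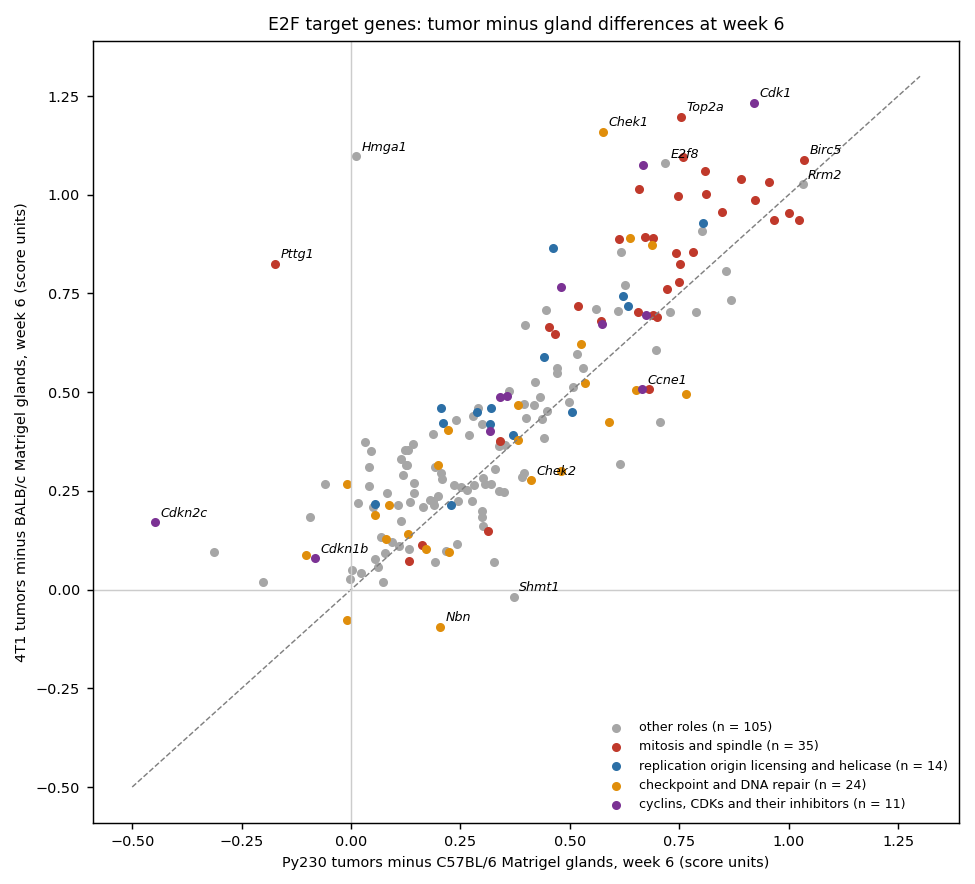
Each point is a member, with the score difference between Py230 tumors and C57BL/6 glands at 6 w p.i. on the horizontal axis and that between 4T1 tumors and BALB/c glands on the vertical axis, colored by role, with a dashed line where both are equal. Most points lie in the upper right, where 148 members were called higher in both models, and Nbn, Cdkn2c, Prps1 and Prkdc are among the members called lower in 1 of the models.

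Replication origin licensing genes rose as a block. At 6 w p.i. 14 of 14 were higher in 4T1 tumors than in glands (median 0.45) and 13 of 14 in Py230 tumors (median 0.34). Mcm5 (ENSMUSG00000005410, chr8:75109569-75128439), whose upstream sequence is given above, scored 1.08, 1.21 and 1.32 in 4T1 tumors and 0.35, 0.39 and 0.07 in BALB/c glands. It scored 1.16, 1.16 and 1.05 in Py230 tumors and 0.30, 0.34 and 0.32 in C57BL/6 glands. Tumors and glands did not overlap in either strain. The differences were 0.93 ± 0.14 (SE, n = 3 per group, limma adjusted p = 5.2e-06) and 0.80 ± 0.14 (limma adjusted p = 6.3e-05). Mcm2, another subunit of the same helicase, differed by 0.72 in 4T1 (limma adjusted p = 3.2e-06) and by 0.63 in Py230 (limma adjusted p = 3.5e-05). Gins4, a subunit of the GINS complex of the active helicase, had the narrowest range of group means in this role (0.22).

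DNA polymerase and fork genes were higher in 17 of 19 cases in 4T1 tumors (median 0.37) and in 14 of 19 in Py230 tumors (median 0.33). Pcna, the sliding clamp of the polymerases, scored 0.90, 0.94 and 1.11 in 4T1 tumors and 0.54, 0.54 and 0.52 in BALB/c glands. The difference was 0.45 ± 0.08 (limma adjusted p = 3.3e-05), with the same size in Py230 tumors (0.45 ± 0.08, limma adjusted p = 6.7e-05). Pole, the catalytic subunit of the leading strand polymerase, had the widest range in this role (0.95), with differences of 0.77 and 0.63. Pole4, an accessory subunit of the same polymerase, had the narrowest (0.14) and was called in none of the 18 comparisons.

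Nucleotide supply was split. In 4T1 tumors 8 of 11 genes were higher and none was lower, and in Py230 tumors 8 of 11 were higher and 2 lower. Rrm2, the regulated subunit of ribonucleotide reductase, scored 0.85, 0.99 and 1.03 in 4T1 tumors and 0.01, 0.17 and -0.38 in their glands. Its difference was 1.03 ± 0.18 (limma adjusted p = 3.6e-05), and 1.03 ± 0.18 (limma adjusted p = 6.2e-05) in Py230 tumors. Tk1, the thymidine kinase of the salvage pathway, differed by 0.73 in 4T1 and by 0.87 in Py230. Among the genes that went the other way in Py230 tumors was Prps1, which makes phosphoribosyl pyrophosphate (-0.20 ± 0.06, limma adjusted p = 0.006, and 0.0501 without C57BL/6 gland replicate 2).

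Mitosis and spindle genes showed the largest median rise of the roles in both models, 34 of 35 higher in each (medians 0.85 and 0.72). Top2a scored 1.54, 1.75 and 1.76 in 4T1 tumors, 0.50, 0.80 and 0.15 in BALB/c glands, 1.50, 1.51 and 1.34 in Py230 tumors and 0.72, 0.67 and 0.71 in C57BL/6 glands. All 6 tumors were above all 6 glands. The difference was 1.20 ± 0.21 in 4T1 (limma adjusted p = 2.2e-05) and 0.75 ± 0.21 in Py230 (limma adjusted p = 0.0038). Mki67, the gene of the Ki-67 proliferation antigen, scored 1.33, 1.49 and 1.61 in 4T1 tumors and 1.58, 1.57 and 1.37 in Py230 tumors, compared to 0.65, 0.91 and 0.20 and 0.85, 0.81 and 0.86 in the respective glands. It differed by 0.89 ± 0.20 (limma adjusted p = 0.00038) and by 0.67 ± 0.20 (limma adjusted p = 0.0064). Birc5, survivin of the chromosomal passenger complex, differed by 1.09 and 1.03. The kinases Aurka (0.76 and 0.72), Aurkb (0.96 and 0.85) and Plk1 (0.99 and 0.92), which build and time the spindle, and the checkpoint kinase Bub1b (1.01 and 0.66) were called in both models. So was Cdc20, which activates the anaphase-promoting complex (0.94 and 0.97).

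The 11 cyclins, CDKs and inhibitors held both drivers and brakes of the cycle. In 4T1 tumors 9 were higher than in glands, and in Py230 tumors 9 were higher and 1 lower. Cdk1 scored 0.92, 1.02 and 1.16 in 4T1 tumors against -0.12, 0.01 and -0.47 in glands, a difference of 1.23 ± 0.19 (limma adjusted p = 4.8e-06). In Py230 tumors it scored 0.91, 0.93 and 0.77 against -0.06, -0.11 and 0.03 (0.92 ± 0.19, limma adjusted p = 0.00029). Its partner Ccnb2 differed by 1.07 and 0.67, Cdk4, the kinase that phosphorylates the retinoblastoma protein, by 0.49 and 0.34, and Ccne1, the cyclin of the start of S phase, by 0.51 and 0.66. Cdkn2c, an inhibitor of CDK4 and CDK6, scored 0.76, 0.81 and 0.76 in Py230 tumors and 1.08, 1.33 and 1.26 in C57BL/6 glands, a fall of -0.45 ± 0.09 (limma adjusted p = 0.00029). In 4T1 tumors it scored 1.08, 1.20 and 1.09, overlapped the BALB/c glands (1.11, 0.83 and 0.92) and was not called.

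Checkpoint and repair genes were higher in 20 of 24 cases and lower in 1 in 4T1 tumors (median 0.31), and higher in 18 and lower in 1 in Py230 tumors (median 0.30). Chek1, the kinase of the replication checkpoint, scored 0.51, 0.63 and 0.63 in 4T1 tumors against -0.52, -0.45 and -0.73 in glands. Its range of group means was the widest of this role (1.28). The difference was 1.16 ± 0.14 (limma adjusted p = 7.8e-08). In Py230 tumors Chek1 scored 0.11, 0.02 and -0.03 against -0.53, -0.51 and -0.58 (0.58 ± 0.14, limma adjusted p = 0.001). Brca1, which acts in homologous recombination, differed by 0.87 and 0.69, and Wee1, the kinase that restrains CDK1, by 0.47 and 0.38. Nbn, a subunit of the complex that senses double strand breaks, was the only member lower in 4T1 tumors (0.49, 0.46 and 0.49 against 0.59, 0.60 and 0.52). That difference was small, -0.09 ± 0.04 (limma adjusted p = 0.038), and its call was lost without 5 of the 6 libraries, with a highest adjusted p of 0.131 by limma. Nbn was higher in Py230 tumors (0.20 ± 0.04, limma adjusted p = 0.00012). Prkdc, the catalytic subunit of DNA-dependent protein kinase, was slightly lower in Py230 tumors (-0.10 ± 0.04, limma adjusted p = 0.019) and slightly higher in 4T1 tumors (0.09 ± 0.04, limma adjusted p = 0.036). These calls of Prkdc were lost without 2 and 4 of the 6 libraries.

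The remaining roles moved in the same direction. All 6 transcription factors of the set were higher in both models. E2f8, a repressor of the E2F family that is itself an E2F target, differed by 1.08 in 4T1 and by 0.72 in Py230, Mybl2, the MYB factor of the MYB-MuvB complex, by 0.81 and 0.86, and Myc by 0.37 and 0.34. Chromatin genes were higher in 22 of 23 cases in 4T1 and in 18 of 23 in Py230, among them Dnmt1, the maintenance DNA methyltransferase (0.42 and 0.30), and Ezh2, the methyltransferase of Polycomb repressive complex 2 (0.29 and 0.39). Nuclear transport and RNA genes were higher in 26 and 27 of 30 cases. Their widest range of group means belonged to Kpna2, an importin alpha (0.91), and their narrowest to Nup153, a nuclear pore protein (0.12). Cohesin and condensin genes were called in 7 of 9 cases in 4T1 and in 4 of 9 in Py230, led by the condensin subunit Smc4 (0.67 and 0.40).

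**Figure D4:**
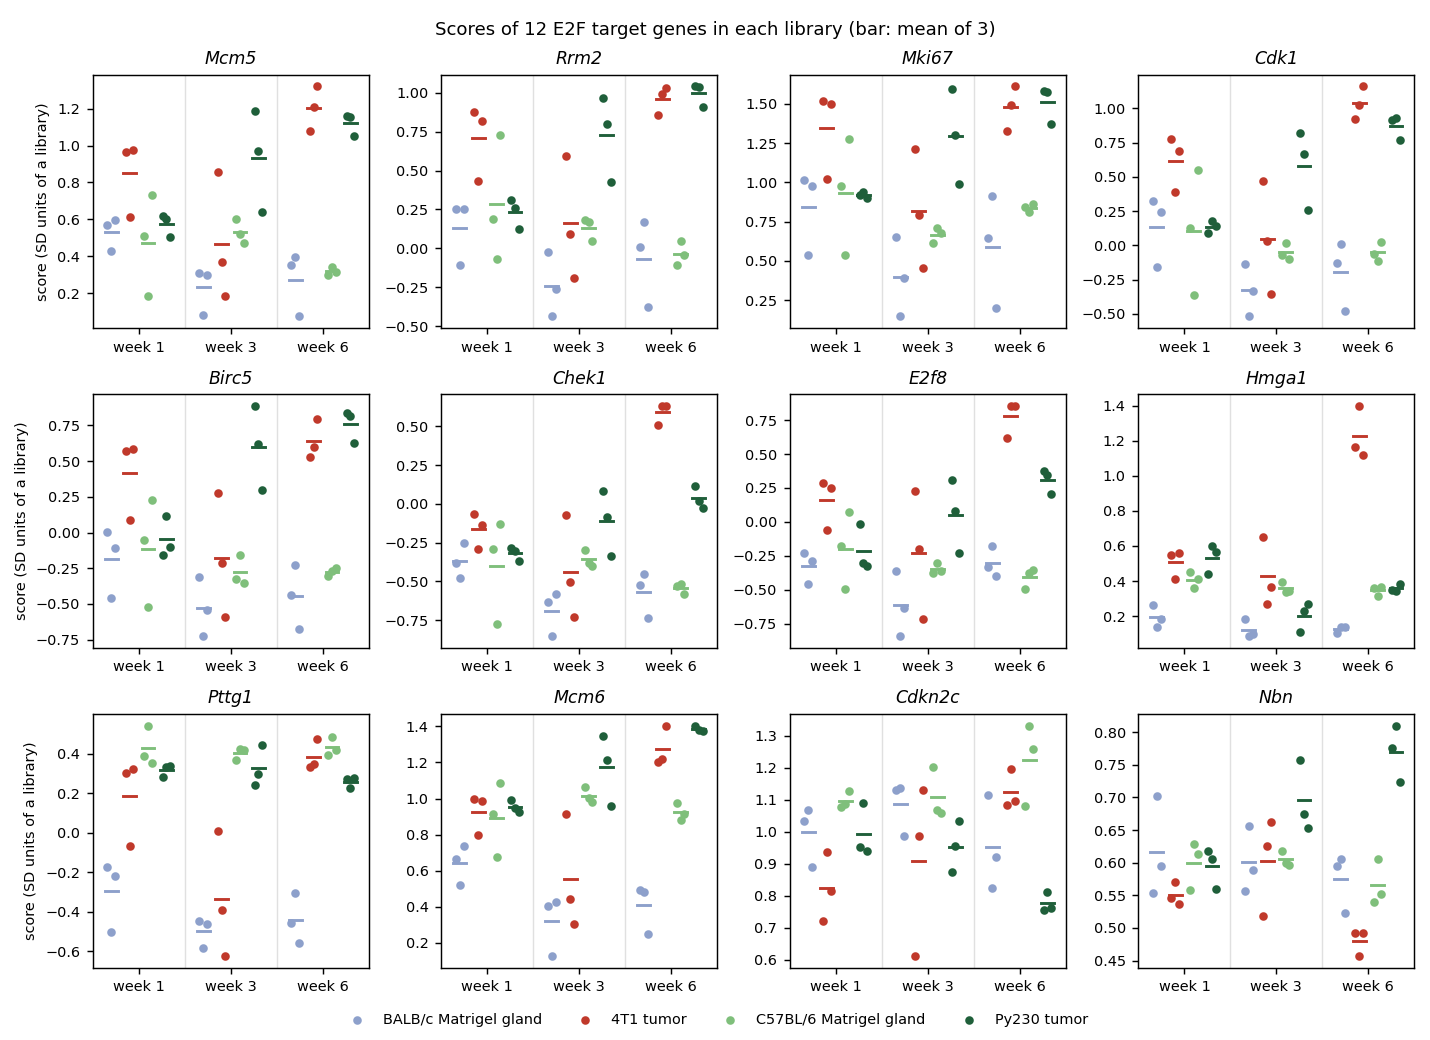
Scores of 12 members in the 36 libraries are plotted by weeks post-inoculation, 1 panel per gene, with a point per library and a short bar at the mean of each group of 3. Mcm5, Rrm2, Mki67, Cdk1 and Birc5 are higher in tumors than in glands at 6 w p.i. in both models, Hmga1 scores 1.12 to 1.40 in 4T1 and 0.34 to 0.38 in Py230 tumors at 6 w p.i., and Pttg1 is low in BALB/c glands (-0.58 to -0.17) and high in C57BL/6 glands (0.35 to 0.54).

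The 2 models reached these levels along different courses. At 1 w p.i. 50 members differed between 4T1 tumors and BALB/c glands, 49 higher and 1 lower (background 16.6%, 9.91% higher and 6.72% lower). At 6 w p.i. 48 of the 49 were also higher, as were 89.4% of all members. Chromatin (14 of 23) and mitosis genes (14 of 35) made up most of the calls at 1 w p.i., for example Birc5 (0.60 ± 0.19, limma adjusted p = 0.034). Genes of other roles were called too, such as Rrm2 (0.58 ± 0.18, limma adjusted p = 0.034) and Pcna (0.28 ± 0.08, limma adjusted p = 0.024), and the gene that was lower was Prkdc (-0.13 ± 0.04, limma adjusted p = 0.018). The count was 97 without 4T1 replicate 2, the adipocyte-rich tumor, 0 without 4T1 replicate 1 or 3, and 0 without BALB/c gland replicate 2. It was also 0 when the fit held these 6 libraries only. The 5 leukocyte and 4 T cell markers were higher in the same 4T1 tumors (median 0.67 for each list), and their part in the result was not tested.

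In Py230 tumors no member was called against the glands at 1 w p.i. (limma, 0 of 189, 12 at an unadjusted p below 0.05, background 0.00924%). At 3 w p.i. 75 were called, 74 higher and 1 lower (background 19.7%, 12.8% higher and 6.9% lower). Mitosis genes accounted for 30 of the 74, with a median difference of 0.53 over the role, and they included Birc5 (0.88), Cdc20 (0.87), Kif2c, a microtubule depolymerase of the centromere (0.82), and Plk1 (0.74). Prps1 fell (-0.25 ± 0.06, limma adjusted p = 0.0038). The 3 Py230 tumors of this time were far apart, with Birc5 at 0.89, 0.62 and 0.30, in the reverse order of their adipocyte marker means of 0.38, 1.79 and 2.05. The count was 10 without Py230 replicate 1, 43 without replicate 2 and 118 without replicate 3, and it was 49, 46 and 40 without C57BL/6 gland replicate 1, 2 and 3. With these 6 libraries alone in the fit no member was called.

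By the number of calls, 4T1 tumors at 3 w p.i. were hardly separated from their glands. Still, 153 of the 189 differences were positive, with a median of 0.07, compared to -0.01 over all genes. Only 3 members were called (background 3.25%, 2.1% higher and 1.15% lower), Hmga1 (0.31 ± 0.07, limma adjusted p = 0.028) and Pola2, a subunit of the primase complex (0.17 ± 0.05, limma adjusted p = 0.047), both higher, and Shmt1, which makes one-carbon units for thymidylate (-0.22 ± 0.06, limma adjusted p = 0.047), lower. Birc5 scored 0.28 in 4T1 replicate 1 but -0.22 and -0.59 in replicates 2 and 3, which reached into the gland values of -0.31, -0.73 and -0.54. The adipocyte marker means of the 3 tumors were 0.79, 2.12 and 2.27. The count was 0 without 4T1 replicate 1, 19 without replicate 3, 0 without any one of the 3 BALB/c glands, and 0 with these 6 libraries alone in the fit. With the tumor libraries in the adipocyte range of the glands left out, an alternative chosen after seeing the data that leaves 1 library in each tumor group at 3 w p.i., 101 members were called for 4T1 (98 higher, against 17.1% of all genes higher in the same fit) and 140 for Py230 (138 higher, against 24.3% of all genes). The lone libraries are assumed in that fit to vary like the other groups.

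Over time, 164 members differed in 4T1 tumors between 3 and 6 w p.i., 163 higher and 1 lower (background 53%, 34.2% higher and 18.8% lower). All 14 licensing genes and 32 of 35 mitosis genes rose, Chek1 by 1.03 ± 0.14 (limma adjusted p = 7e-07) and Hmga1 by 0.80 ± 0.07 (limma adjusted p = 1.4e-09). Nbn was lower by a small amount (-0.12 ± 0.04, limma adjusted p = 0.0099). The share of all called genes that were higher was 64.6%, and 48.6% after cyclic loess normalization, which left the members at 150 higher and 2 lower. The 8 adipocyte markers fell over the same interval (median -1.95), and their part in the result was not tested. The count was 86, 85 of them higher (23% of all genes higher), with the adipocyte-rich 4T1 tumors of 1 and 3 w p.i. and Py230 tumors of 3 w p.i. left out, which leaves 1 4T1 library at 3 w p.i. From 1 to 3 w p.i. most members were lower in 4T1 tumors, by amounts mostly too small to be called singly. Only 23 of the 189 differences were positive, and their median was -0.12, compared to -0.002 over all genes. The members called over this interval were Pttg1, the gene of securin, and H2afz, a histone H2A variant, both lower (-0.52 and -0.33, background 0.628%). That count was 92 without 4T1 replicate 1 of 3 w p.i., 24 without replicate 2 of 1 w p.i., and 0 without each of the other 4 libraries.

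Within Py230 tumors 52 members were called between 1 and 3 w p.i., 51 higher and 1 lower (background 20%, 12.8% higher and 7.17% lower), among them 11 checkpoint and repair genes, 11 nuclear transport and RNA genes and 9 mitosis genes. Tk1 scored 0.22, 0.19 and 0.15 at 1 w p.i. and 0.97, 0.71 and 0.38 at 3 w p.i., without overlap (0.50 ± 0.13, limma adjusted p = 0.0076). Hmga1 fell by 0.33 ± 0.07 on the score scale (limma adjusted p = 0.0021). The count was 6 without replicate 1 of 3 w p.i., 23 without its replicate 2 and 113 without its replicate 3, and 34 and 20 without replicates 2 and 3 of 1 w p.i., and it was 0 when the fit held these 6 libraries only. All 3 tumors at 1 w p.i. and 2 of 3 at 3 w p.i. had the adipocyte marker level of a gland. After cyclic loess normalization the share of all called genes that were higher moved from 64.1% to 53.4%, with 40 members higher and 3 lower. From 3 to 6 w p.i. 6 members were called, all higher (background 6.03%, 3.96% higher and 2.06% lower). The largest differences belonged to Ccne1 (0.41), Tipin, a fork protection protein (0.19), and Ran, the GTPase of nuclear transport (0.17). That count was 44 without replicate 1 of 3 w p.i., 13 without replicate 3 of 6 w p.i., 1 without replicate 2 of 3 w p.i. and 0 without each of the other 3 libraries and in a fit of these 6 alone.

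**Figure D5:**
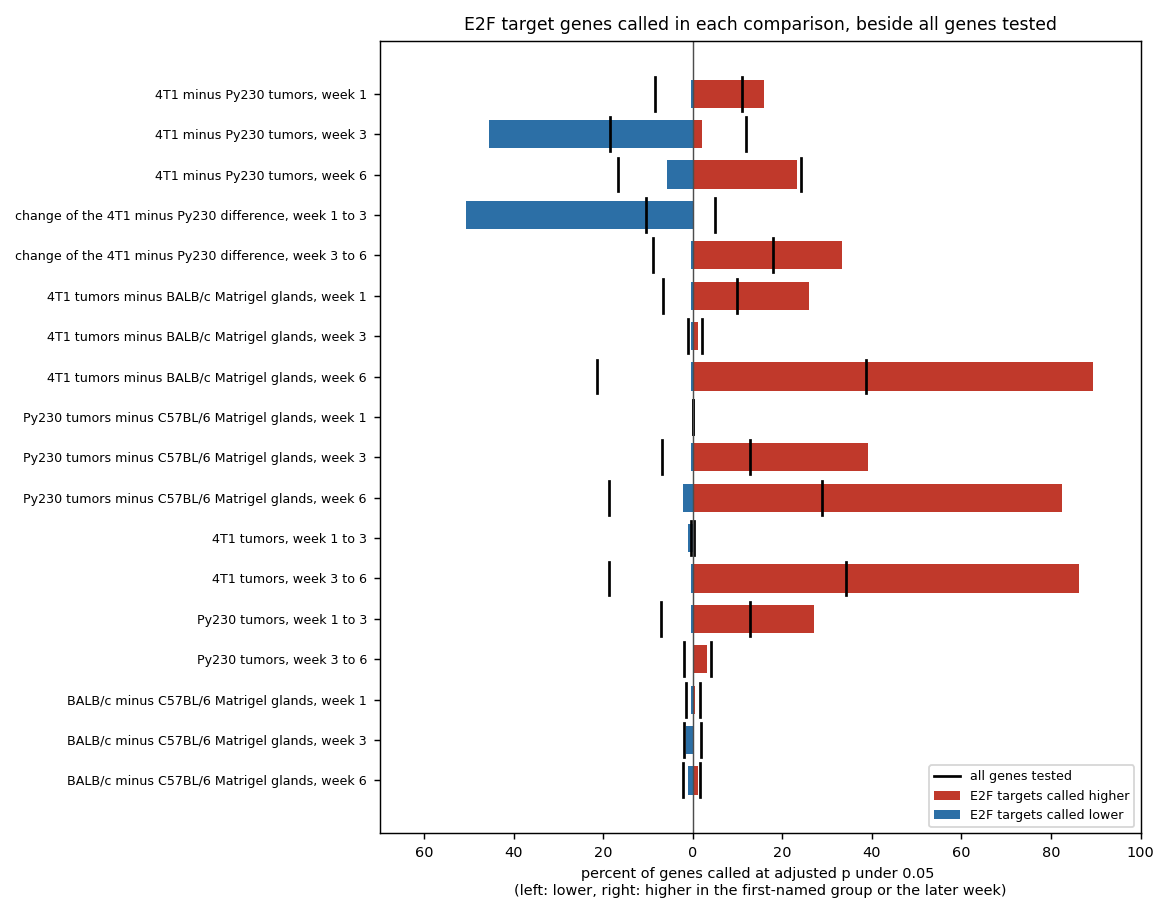
For each comparison the bars give the percentage of the 189 E2F targets called higher (to the right) and lower (to the left; limma, adjusted p below 0.05) and the black ticks give the same percentages over all 21650 genes. Between the models the balance turns from 15.9% higher and 0.529% lower at 1 w p.i. to 2.12% higher and 45.5% lower at 3 w p.i.

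The comparison of the 4T1- with the Py230-based model asks how proliferation differs between them as the tumors progress. At 1 w p.i. 31 members were called, 30 higher in 4T1 tumors and 1 lower (background 19.4%, 11% higher and 8.43% lower), so the share of members called (16.4%) was below that of all genes. The median difference was 0.11, compared to 0.01 over all genes. Chromatin genes (8 of 23), mitosis genes (5 of 35) and polymerase genes (4 of 19) were the roles with most calls. Ccnb2, the cyclin B2 gene, scored 0.70, 0.29 and 0.72 in 4T1 tumors and -0.05, -0.02 and 0.00 in Py230 tumors, without overlap (0.59 ± 0.18, limma adjusted p = 0.024). Next came Cdca8, another passenger complex gene (0.52), Kif22, a chromosome-associated kinesin (0.51), and Aurka (0.39), whereas Ccp110, a centriole capping protein, was lower (-0.17 ± 0.05, limma adjusted p = 0.017).

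Of the 31 calls at 1 w p.i. only that of Smc6, a subunit of the SMC5/6 repair complex (0.18 ± 0.03, limma adjusted p = 9.5e-05), held whichever of the 6 libraries was left out. Ccnb2 lost its call without 5 of the 6 libraries, with a highest adjusted p of 0.117 by limma without 4T1 replicate 3. The count of members was 2 without 4T1 replicate 1, 69 without replicate 2 and 3 without replicate 3, and 12, 14 and 8 without Py230 replicates 1, 2 and 3. It was 10 when the fit held these 6 libraries only. Leukocyte markers were higher in 4T1 tumors in 5 of 5 cases (median 0.51), T cell markers in 4 of 4 (median 0.62) and milk-producing epithelium markers in 5 of 6 (median 0.42). Their part in the result was not tested.

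At 3 w p.i. the direction was the opposite. Of 90 members called, 86 were lower in 4T1 than in Py230 tumors and 4 were higher (background 30.3%, 18.5% lower and 11.9% higher), with a median difference of -0.15. With the difference between the Matrigel glands of the strains subtracted, 11 members were called, 9 of them lower, against 9.15% and 6.51% of all genes. Mitosis genes were lower in 24 of 35 cases (median -0.47), checkpoint and repair genes in 16 of 24 (median -0.25), polymerase genes in 10 of 19, licensing genes in 6 of 14 and nucleotide genes in 6 of 11, and none of the mitosis, checkpoint, polymerase or licensing genes was higher. Melk, a kinase of dividing cells, scored 0.07, -0.30 and -0.68 in 4T1 tumors and 0.82, 0.53 and 0.19 in Py230 tumors. The groups did not overlap and differed by -0.82 ± 0.18 (limma adjusted p = 0.0013). Birc5 scored 0.28, -0.22 and -0.59 in 4T1 tumors and 0.89, 0.62 and 0.30 in Py230 tumors, again without overlap, a difference of -0.78 ± 0.19 (limma adjusted p = 0.0031).

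Tk1 (-0.62 ± 0.13, limma adjusted p = 0.00059), Cdc20 (-0.74 ± 0.19, limma adjusted p = 0.0037) and Aurka (-0.55 ± 0.13, limma adjusted p = 0.002) were called as well. Of the 90 calls 31 held whichever of the 6 libraries was left out, among them those of Melk, Birc5, Tk1, Cdc20, Aurka, Chek2, Shmt1 and Smc6. Chek2, the kinase of the double strand break checkpoint, scored 0.09, -0.10 and 0.09 in 4T1 tumors and 0.75, 0.55 and 0.32 in Py230 tumors (-0.51 ± 0.08, limma adjusted p = 3.6e-05). Shmt1 scored 0.34, 0.32 and 0.33 against 0.88, 0.80 and 0.62 (-0.43 ± 0.06, limma adjusted p = 7e-06). The Py230 values of both genes fell in the order in which the adipocyte marker means of these tumors rose (0.38, 1.79 and 2.05), and the part of adipose tissue in the result was not tested.

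Some genes of the same roles overlapped between the models at 3 w p.i. Mcm5 scored 0.86, 0.37 and 0.18 in 4T1 tumors and 1.19, 0.97 and 0.64 in Py230 tumors (-0.46 ± 0.14, limma adjusted p = 0.015, and 0.136 without Py230 replicate 1). Mki67 (-0.48 ± 0.20, limma adjusted p = 0.068) and Top2a (-0.44 ± 0.21, limma adjusted p = 0.11) were not called, nor were they at 1 or 6 w p.i. The genes that were higher in 4T1 tumors included Hmga1 (0.23) and Prps1 (0.21). The count of members was 55 without 4T1 replicate 2, 50 without 4T1 replicate 3 and 31 without Py230 replicate 1. With the adipocyte-rich tumors of both models left out, 1 library remained in each group. Members were then called about as often as all genes, and more often lower. When the fit held these 6 libraries only, so that the spread was estimated from the uneven tumors of 3 w p.i. alone, 1 member was called. None of the 8 adipocyte markers was called between the models (median 0.32). The 4 macrophage markers were higher in 4T1 tumors (median 0.49), as were 2 of 5 leukocyte markers (median 0.33), and their part in the result was not tested.

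The change of the difference between the models was itself tested. From 1 to 3 w p.i. it was called for 96 members, all in the direction of a fall in 4T1 relative to Py230 tumors (background 15.3%, 10.4% in this direction and 4.89% in the other), including 31 of 35 mitosis genes (median -0.86). The count was 55 without 4T1 replicate 3 and 30 without Py230 replicate 1 of 3 w p.i., and 0 when the fit held the 12 libraries of this test only. From 3 to 6 w p.i. it was called for 64 members, 63 of them in the direction of a rise (background 26.7%, 17.8% in this direction and 8.88% in the other), with 10 chromatin, 10 nuclear transport and RNA and 9 checkpoint genes but 4 of 35 mitosis genes. This count lay between 39, without Py230 replicate 1 of 3 w p.i., and 122, without replicate 3 of that group, and was 111 and 40 without 4T1 replicates 1 and 3 of 3 w p.i. and 41 without Py230 replicate 3 of 6 w p.i., and it was 24 in a fit of the 12 libraries alone. After cyclic loess normalization the share of all called genes in the direction of a rise moved from 66.8% to 49.3%, with 41 members rising and 2 falling. The difference was positive at 1 w p.i. and negative at 3 w p.i. for 139 of the 189 members, and 76 members were positive, negative and positive in turn. These tests share the 3 w p.i. tumors with one another, and they did not subtract the difference between the Matrigel glands of the strains.

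At 6 w p.i. the models differed in 55 members, 44 higher in 4T1 tumors and 11 lower (background 40.8%, 24.1% higher and 16.7% lower), a smaller share (29.1%) than that of all genes. The median difference was 0.05 and close to the 0.04 over all genes. After cyclic loess normalization the share of all called genes that were higher fell from 59.1% to 49%, and the members were split 39 higher and 15 lower. None of the 35 mitosis genes was higher and 2 were lower. The other differences lay in single genes of other roles, and the count stayed between 42 and 49 whichever tumor was left out. Neutrophil markers were higher in 4T1 tumors in 4 of 4 cases (median 0.89), milk-producing epithelium markers lower in 5 of 6 (median -0.95) and basal epithelium markers lower in 3 of 4 (median -1.26). Their part in the result was not tested.

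Hmga1 (ENSMUSG00000046711, chr17:27556497-27563674), an architectural chromatin protein, showed the largest difference. It scored 1.16, 1.40 and 1.12 in 4T1 tumors and 0.35, 0.34 and 0.38 in Py230 tumors (0.87 ± 0.07, limma adjusted p = 1.6e-10). The Py230 values overlapped those of the C57BL/6 glands of the same time (0.36, 0.32 and 0.37), whereas BALB/c glands scored 0.11, 0.14 and 0.14. Chek1 differed by 0.56 ± 0.14 (limma adjusted p = 0.0016), with no 4T1 value below 0.51 and no Py230 value above 0.11. E2f8 scored 0.62, 0.86 and 0.85 in 4T1 tumors and 0.37, 0.35 and 0.21 in Py230 tumors (0.47 ± 0.17, limma adjusted p = 0.03), a call lost without 4 of the 6 libraries, with a highest adjusted p of 0.0984 without Py230 replicate 3.

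Of the inhibitors, Cdkn2c was higher in 4T1 than in Py230 tumors (0.35 ± 0.09, limma adjusted p = 0.0032), and so was Cdkn1b, the inhibitor p27 (1.32, 1.29 and 1.26 against 1.10, 1.03 and 1.11, a difference of 0.21 ± 0.04, limma adjusted p = 6.9e-05). Cdk4 was higher too (0.20 ± 0.06, limma adjusted p = 0.0069). The largest differences in the other direction belonged to Chek2, Nbn and Shmt1. Chek2 scored 0.08, 0.20 and 0.25 in 4T1 tumors and 0.56, 0.53 and 0.52 in Py230 tumors (-0.36 ± 0.08, limma adjusted p = 0.00082). Nbn scored 0.49, 0.46 and 0.49 against 0.78, 0.81 and 0.72 (-0.29 ± 0.04, limma adjusted p = 8.3e-07), and Shmt1 differed by -0.24 ± 0.06 (limma adjusted p = 0.002). Checkpoint and repair genes were thus split, with 5 higher and 5 lower.

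Some genes were called at more than 1 time in the comparison of the models. Of the 30 members higher in 4T1 tumors at 1 w p.i., 8 were lower at 3 w p.i. (26.7% of the 30 and 9.3% of the 86). Among all 189 members 45.5% were lower at 3 w p.i., a larger share. Of the same 30, 7 were higher at 6 w p.i. (23.3% of the 30 and 15.9% of the 44), a share equal to the 23.3% of all members. Of the 86 members lower at 3 w p.i., 7 were also lower at 6 w p.i., which is 63.6% of the 11, against 45.5% of all members. Smc6 was higher in 4T1 tumors at all times, by 0.18, 0.14 and 0.15 (SE 0.03 each, limma adjusted p = 9.5e-05, 0.00052 and 0.00016).

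The Matrigel glands show which of these genes also differed between the strains without a tumor. Between BALB/c and C57BL/6 glands 2 members were called at 1 w p.i., 3 at 3 w p.i. and 4 at 6 w p.i. (background 3.06%, 3.77% and 3.84%, of which 1.57%, 1.89% and 1.67% higher in BALB/c). At 3 w p.i. most members were nevertheless lower in BALB/c glands, by amounts too small to be called singly. Only 28 of the 189 differences were positive, and their median was -0.08, compared to 0.005 over all genes. The medians at 1 and 6 w p.i. were -0.009 and -0.015. Pttg1 was called every time. It scored -0.46, -0.31 and -0.56 in BALB/c glands and 0.39, 0.48 and 0.42 in C57BL/6 glands at 6 w p.i., with differences of -0.73, -0.90 and -0.87 (SE 0.11 each) at the 3 times. In Py230 tumors it lay between 0.23 and 0.44 over the 3 times, compared to 0.35 to 0.54 in C57BL/6 glands, while in 4T1 tumors it rose from 0.01, -0.39 and -0.63 at 3 w p.i. to 0.33, 0.35 and 0.47 at 6 w p.i. (0.72 ± 0.11, limma adjusted p = 6.5e-06).

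Mcm6 also differed between the strains, with 0.49, 0.48 and 0.25 in BALB/c glands and 0.97, 0.88 and 0.92 in C57BL/6 glands at 6 w p.i. (-0.52 ± 0.12, limma adjusted p = 0.0081), and by -0.70 at 3 w p.i. At 6 w p.i. the tumors of both models were close together (1.20, 1.22 and 1.40 in 4T1 and 1.40, 1.38 and 1.38 in Py230). Stmn1, a microtubule destabilizer, differed between the strains at 3 w p.i. (-0.58 ± 0.13, limma adjusted p = 0.0077), Smc6 at 1 and 6 w p.i. (0.13 and 0.12), and Snrpb, a spliceosome core protein, at 6 w p.i. (0.13). The count was 1 without C57BL/6 gland replicate 1 at 1 w p.i., and 2 without BALB/c replicate 2 or 3 or C57BL/6 replicate 1 at 6 w p.i. When the difference between the Matrigel glands of the strains was subtracted from that between the tumors, 0 members were called at 1 w p.i., 11 at 3 w p.i. (9 lower) and 29 at 6 w p.i. (26 higher, or 13.8% of the members). Over all genes the same test called 0.305%, 9.15% and 25.5%, with 14.4% higher at 6 w p.i.

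Cell cycle regulators outside the set were read from a list of 34 genes. At 6 w p.i. 26 were higher and 4 lower in 4T1 tumors than in glands (background 38.6% higher and 21.5% lower). In Py230 tumors 22 were higher and 5 lower (background 28.8% higher and 18.7% lower). The retinoblastoma gene Rb1, whose protein restrains E2F factors, was lower in both (-0.58 and -0.50), and so was Cdkn1c, the inhibitor p57 (-1.35 and -1.09). Between the models 6 of the 34 were called at 1 w p.i., 11 at 3 w p.i. and 6 at 6 w p.i. (background 19.4%, 30.3% and 40.8%). Ccnd1, the cyclin partner of CDK4, was lower in 4T1 tumors at 1 w p.i. (-0.33) and 3 w p.i. (-0.59 ± 0.10, limma adjusted p = 0.00011). The cyclins Ccna2 (-0.59) and Ccnb1 (-0.58), which drive S phase and mitosis, were lower at 3 w p.i. as well. Without a tumor, the mean of Ccnd1 was 1.202 in BALB/c and 1.314 in C57BL/6 glands at 1 w p.i. At 3 w p.i. the respective gland means were 1.145 and 1.607 for Ccnd1, -0.214 and 0.048 for Ccna2, and -0.693 and -0.664 for Ccnb1. At 6 w p.i. Cdk6, the sister kinase of CDK4, was higher in 4T1 tumors by 0.81 ± 0.08 (limma adjusted p = 4.3e-09), E2f4, a mainly repressive E2F factor, by 0.28 and Tfdp1, the dimer partner of E2F factors, by 0.18, and Ccne2 was lower (-0.32).

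Members with the CHR element in their promoter window had larger tumor to gland differences at 6 w p.i. than those without, with medians of 0.70 (n = 48) and 0.37 (n = 106) in 4T1 and 0.59 and 0.30 in Py230. Of the 48 genes 17 were mitosis genes, against 13 of the 106. With mitosis genes left out the medians were 0.42 and 0.35 in 4T1 and 0.36 and 0.28 in Py230. For the E2F octamer the medians with and without a match were 0.38 and 0.44 in 4T1 and 0.32 and 0.35 in Py230, and the order turned with mitosis genes left out (0.37 and 0.35 in 4T1, 0.32 and 0.28 in Py230). These are descriptions over genes that share roles and regulators, and no test was made of them.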

How the data were processed

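RNA of primary tumors and Matrigel glands had been sequenced by the authors from stranded libraries, aligned to mm10 with STAR, counted per gene with summariseOverlaps and analysed with DESeq2. Versions were not given in the sources used here. The deposited expression table held scores, standardized per library, a step that the methods do not describe. Depth is therefore unknown, and no count model or counting interval was used. Other deposited tables held log2 fold changes and p-values of the authors' comparisons, which were not used, the authors' mean normalized counts (signal), used for levels only, and hallmark membership (1 or 0). Some genes of the set are not named here.

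A linear model with 12 group means over 36 libraries was fitted to all 21650 genes with limma 3.58.1 in R 4.3.3 (trend and robust empirical Bayes, Benjamini-Hochberg adjustment) after tests on simulated data. Alternatives were quantile and cyclic loess normalization, a filter at the median mean score, fits of the compared groups alone, no trend or robust step, a replicate block, subtraction of the strain difference between glands, and leaving out each library. Cyclic loess and leaving out adipocyte-rich tumors (Py230 at 1 w p.i. kept) were chosen after seeing the data. Named genes were 27 fixed genes, the 3 largest called differences in each direction per comparison, up to 3 called members against the main direction, the widest and narrowest range of each role, and called regulators outside the set. Other genes, such as those of the promoter sequences and strain comparisons, were added after their values were seen. Members and lists were chosen with earlier results of these data known. Promoter windows were taken from RefSeq (GRCm38.p6). Tables and plots were made with Python 3.11.15, pandas 2.3.3 and matplotlib 3.10.9.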

Additional observations from a re-analysis of the deposited data

Results flagged for a closer look

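The difference between 4T1 and Py230 tumors changed over time for many E2F targets by the test of the change itself (limma, adjusted p below 0.05). From 1 to 3 w p.i. it changed for 96 members (50.8% of the 189, against 15.3% of all genes), with the largest falls in Birc5 (-1.24), Melk (-1.18) and Spag5 (-1.12), all genes of mitosis. From 3 to 6 w p.i. it changed for 64 members (33.9%, against 26.7% of all genes), with the largest rises in Chek1 (0.88), Pttg1 (0.79) and E2f8 (0.75), and 1 fall, in Nbn (-0.20). With 1 library left out these counts ranged from 30 to 129 and from 39 to 122, and they were 0 and 24 when the fit held the 12 libraries of each test only. In Birc5 the mean difference went from 0.46 at 1 w p.i. to -0.78 at 3 w p.i. and to -0.12 at 6 w p.i., whereas in Chek1 it went from 0.15 to -0.32 and to 0.56. Adipocyte markers of the tumors ranged from 0.79 to 2.27 (4T1) and from 0.38 to 2.05 (Py230) at 3 w p.i., and their part in these changes was not tested.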

How the results depend on the processing

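Against the glands at 6 w p.i., 162 of 170 calls (4T1) and 146 of 160 (Py230) held whichever library was left out, with counts from 164 to 170 and from 149 to 162, and those of Nbn (4T1), Prkdc (both) and Prps1 (Py230) were among the calls lost. The calls at the earlier times depended on single libraries and on how the spread was estimated. When any 1 library was left out, the count of members ranged from 2 to 69, from 31 to 129 and from 42 to 49 for 4T1 vs Py230 tumors at the 3 times, from 30 to 129 and from 39 to 122 for the change of that difference from 1 to 3 and from 3 to 6 w p.i., from 0 to 97 and from 0 to 19 for 4T1 tumors vs glands at the first and second time, and from 10 to 118 for Py230 tumors vs glands at 3 w p.i. (0 each time at 1 w p.i.). It ranged from 0 to 92 and from 153 to 170 for 4T1 tumors from 1 to 3 and from 3 to 6 w p.i., from 6 to 113 and from 0 to 44 for Py230 tumors over the same intervals, and from 1 to 3, from 2 to 4 and from 2 to 4 for the strains of the glands. Fits of the compared groups alone have fewer samples and gave 10, 1, 0 and 24 members for 4T1 vs Py230 at the first and second time and for the 2 changes, 0 for both models vs glands at 3 w p.i., for 4T1 vs glands at 1 w p.i., for 4T1 from 1 to 3 w p.i. and for both Py230 intervals, and 1 and 8 for the strains at the first and second time. Restricting the test to genes above the median mean score left 134 members, of which 20 were called for 4T1 vs Py230 at 1 w p.i., 59 for the change from 1 to 3 w p.i., 49 for Py230 vs glands at 3 w p.i., and 1 each for 4T1 from 1 to 3 w p.i. and for the strains at 1 w p.i. Without trend and robust estimation 1 member was called for 4T1 from 1 to 3 w p.i. With the strain difference between glands subtracted, 0, 11 and 29 members were called between the models at the 3 times, and the difference of Mcm2 at 3 w p.i. turned to 0.0215 (limma adjusted p = 0.947). The cause of these shifts was not tested.

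With the tumors in the adipocyte range of the glands left out, except at 1 w p.i. in Py230, where all 3 lay in that range and were kept, an alternative chosen after seeing the data, the counts were 105 and 55 between the models at the first and second time, 118 and 101 for 4T1 vs glands at the first and second time, 140 for Py230 vs glands at 3 w p.i., 0 and 86 for 4T1 from 1 to 3 and from 3 to 6 w p.i., and 132 and 1 for Py230 over the same intervals, the last of which was lower instead of higher. The 105 and the count for Py230 from 1 to 3 w p.i. therefore compare adipocyte-poor tumors with the adipocyte-rich Py230 tumors of 1 w p.i. At 1 w p.i. the same fit called 32.6% of all genes between the models, against 55.6% of the members. For 4T1 vs glands at 1 w p.i. it called 32.5% of all genes, against 62.4% of the members. The counts that involve tumors of 3 w p.i. rest on 1 library in each tumor group of that time.

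The replicate number as a block gave 34, 96 and 55 members between the models at the 3 times and changed no call of a named gene. The labels do not say whether the numbers pair samples. Of 48 pairs of samples with the same number, 16 had deviations from the group means that correlated above 0.1 (range -0.51 to 0.82). With 3 uneven samples per group these values cannot show whether samples shared an animal or a day. Quantile normalization changed the call of 4 of 193 named gene results and cyclic loess of 11. Depth could not be assessed from scores, so no limit from read counts can be given for low genes.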
